A study of Xenopus laevis with 11 samples.

Results

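The assembled ends of the 18 Xenopus laevis chromosomes held 9128 of the 58215 accessible regions that stage 9 animal caps had on those chromosomes. The full list has 58223 regions, the remaining 8 on unplaced scaffolds. A peak belonged to an end when its summit lay in the first 5 Mb of a chromosome or in the 5 Mb before that chromosome's last peak. This gave 36 end windows that cover 180 Mb of 2741 Mb. End windows thus made up 6.57% of the assembled length and held 15.7% of the peaks. The first ends of the L chromosomes held 2387 peaks and their last ends 2756, while the first and last ends of the S chromosomes held 1693 and 2292.

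X. laevis is an allotetraploid frog with 2 subgenomes, L and S, inherited from different parental species. Chromosomes or genes that correspond between them are homeologs. Animal caps are explants of blastula ectoderm, cells that are still pluripotent at the stages studied, and ATAC-seq uses the Tn5 transposase to cut and tag DNA that nucleosomes leave open. All samples were wild-type animals of the strain labelled Xla.NXR-WTNXR. The labels name 11 libraries, 5 of stage 8 from 3 replicates and 6 of stage 9 from 4 replicates, each reaction made from 2 caps, and the peak list is 1 list called by the authors on the pooled stage 9 libraries. Neither stage 8 nor any single library was analysed here, no peak has a spread between replicates, and p-values below measure how evenly a difference runs over the 9 homeologous chromosome pairs. Those pairs are not biological replicates.

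Chromosome ends carry telomeres, repeat arrays that protect the DNA from erosion and fusion, and next to them lie subtelomeric regions where segments are often exchanged and duplicated. In many vertebrates genes and recombination are denser toward the ends than in the interior. Accessible regions mark promoters and distal elements such as enhancers, to which sequence-specific factors bind. The first end is base 1 of the assembled chromosome and the last end is its last peak. Whether telomere repeats are assembled at either was not examined, and chromosome 9_10 is a fusion chromosome, so its ends come from different ancestral chromosomes.

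Chromosome ends held more peaks per Mb than the remainder of the same chromosomes in all 9 pairs. The density was 50.7 ± 17.4 peaks per Mb at the ends and 19.2 ± 2.50 outside them (SD, n = 9 chromosome pairs). The difference of 31.5 ± 17.5 peaks per Mb had an exact two-sided sign-flip permutation p of 0.00391, the smallest that 9 pairs allow, and an adjusted p of 0.0117 over the 9 comparisons made. The smallest differences were those of pairs 1 and 2, at 10.3 and 10.8 peaks per Mb, and the largest was that of pair 8, at 58.2. The fold enrichment at a summit is measured against CUT&RUN libraries made without antibody. Background at the summits of called peaks was lower at the ends, with a median of 0.626 fragments against 0.785 outside them. The lowest background in the list was found at 54.7% of end summits and at 22.1% of those outside the ends. Control signal away from called summits was not measured. Peaks with at least 10 fragments at the summit, a limit chosen after the data were seen, were counted as well. These peaks too were called against the control, and the part of the control signal in the density was not tested. They numbered 23.7 and 9.05 per Mb, and the ends were denser in 9 of 9 pairs (exact permutation p = 0.00391).

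Individual ends ranged from 11.4 to 112 peaks per Mb. Of the 36 ends, 33 lay above the remainder of their own chromosome, 26 at 2 or more times its density and 12 at 3 or more times. The median end held 50.0 peaks per Mb. The densest was the last end of 8L with 558 peaks (112 per Mb, 4.93 times the remainder of 8L), followed by the first end of 8L with 505 peaks (101 per Mb) and the last end of 9_10L with 424 (84.8 per Mb). In relation to the remainder of its chromosome, the last end of 7L stood highest, at 5.20 times, and the last end of 7S reached 4.95 times. The sparsest end was the first of 2S with 57 peaks, or 11.4 per Mb (exact 95% Poisson interval 8.63 to 14.8, counting error only), against 19.9 per Mb on the remainder of 2S. The first ends of 1L (18.8 per Mb, interval 15.2 to 23.0) and 5S (16.4 per Mb, interval up to 20.4) stood at 0.942 and 0.945 times the remainder of their own chromosomes, whose densities lay inside these intervals. Neighbouring peaks can share fragments, so these intervals are too narrow.

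**Figure D1:**
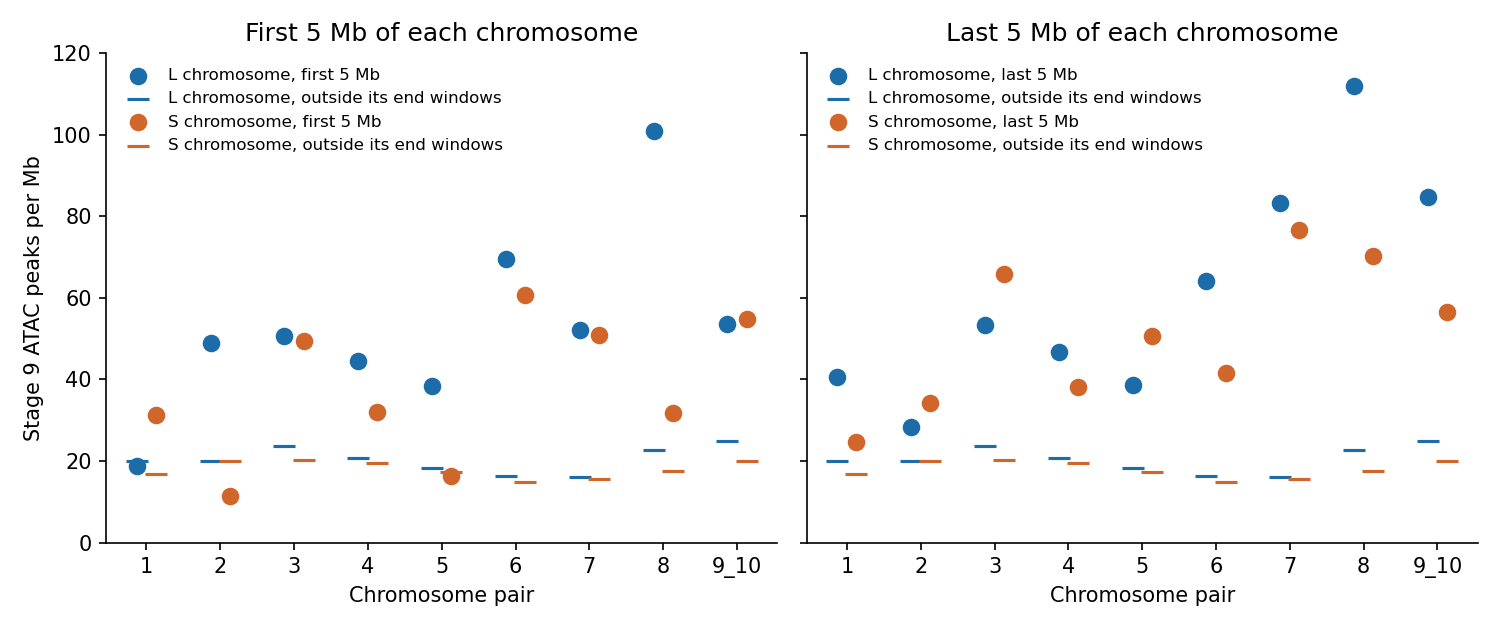
Stage 9 ATAC peaks per Mb (y axis, from 0) in the first 5 Mb (left) and last 5 Mb (right) of each chromosome pair (x axis), 1 point per end for L (blue) and S (orange). Short horizontal lines give the density of the same chromosome outside its end windows. All 18 last ends lie above their lines, and the first ends of 1L, 2S and 5S do not.

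Mean density was highest in the outermost Mb and fell toward the edge of the window, just outside which it was still above that further in. The outermost Mb held 75.2 ± 37.4 peaks (SD, n = 36 ends), the second Mb 60.4 ± 49.4 and the third 49.0 ± 37.2. The last Mb inside the window held 31.7 ± 22.1 peaks and the first Mb outside it 25.7 (2.00 to 92.0 over the ends), while 20 to 30 Mb from the end the density was 22.0 ± 7.62 per Mb. Most of the excess lay in the outer 3 Mb, and the spread among ends was widest there as well. With windows of 2 Mb the ends held 67.8 peaks per Mb and the remainder 20.2 (higher in 9 of 9 pairs, adjusted p = 0.0117, exact permutation test). A single Mb, the second from the last end of 8L, held 234 peaks, and the corresponding Mb of 1L from its first end held 3. Genes thinned out less steeply, from a mean of 26.9 protein-coding genes in the outermost Mb to 18.6 in the fifth and 12.6 per Mb at 20 to 30 Mb. Peaks per gene therefore went from 2.79 in the outermost Mb to 1.70 in the fifth, and stood at 1.75 at 20 to 30 Mb.

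**Figure D2:**
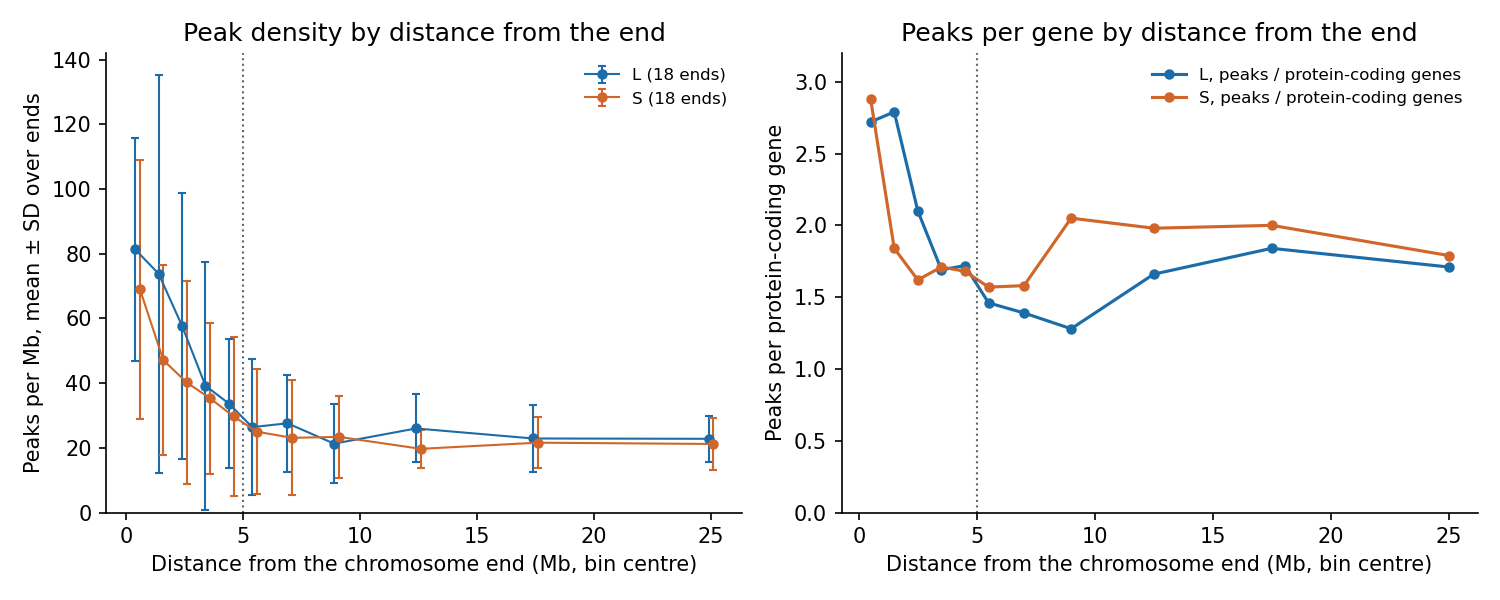
Left, peaks per Mb (y axis) by distance from the chromosome end in Mb (x axis, bin centres), mean ± SD over the 18 L ends (blue) and 18 S ends (orange). Right, peaks divided by protein-coding genes in the same bins, and the dotted line marks the 5 Mb window edge. Over all 36 ends the mean density was 75.2 per Mb in the outermost bin and 22.0 in the innermost, and the ratio to genes was 2.79 and 1.75.

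Ends were also rich in genes and, with the 4 end windows of a pair joined, held more peaks for each gene. Of the 36 single ends, 32 had more genes per Mb than the remainder of their own chromosome. Only 27 of the 36 had more peaks per gene. The windows held 4316 protein-coding genes, 12.5% of those on the chromosomes, at 24.0 ± 8.53 genes per Mb against 12.0 ± 2.25 outside (SD, n = 9, higher in 9 of 9 pairs, exact permutation p = 0.00391, adjusted 0.0117). Without genes known only by a LOC symbol the difference was narrower, 12.1 against 7.99 genes per Mb. It was then higher at the ends in 8 of 9 pairs (adjusted p = 0.0492, exact permutation test). There were 2.15 ± 0.442 peaks per protein-coding gene at the ends and 1.63 ± 0.199 outside them. This difference of 0.521 ± 0.538 had the same sign in 9 of 9 pairs (adjusted p = 0.0117, exact permutation test) and was widest in pair 7, with 2.93 against 1.29 peaks per gene. It was narrow in pair 1 (1.81 and 1.76) and in pair 9_10 (1.55 and 1.48). The call did not hold against the adjoining 10 Mb alone, where genes had 1.78 peaks each (higher at the ends in 7 of 9 pairs, adjusted p = 0.216, exact permutation test), or with windows of 10 Mb (1.96 against 1.63, adjusted p = 0.0791). Across the 36 ends, peak density and gene density had a Pearson r of 0.700 and a Spearman rho of 0.760, given as a description since both share the base composition and mappability of the same segment.

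**Figure D3:**
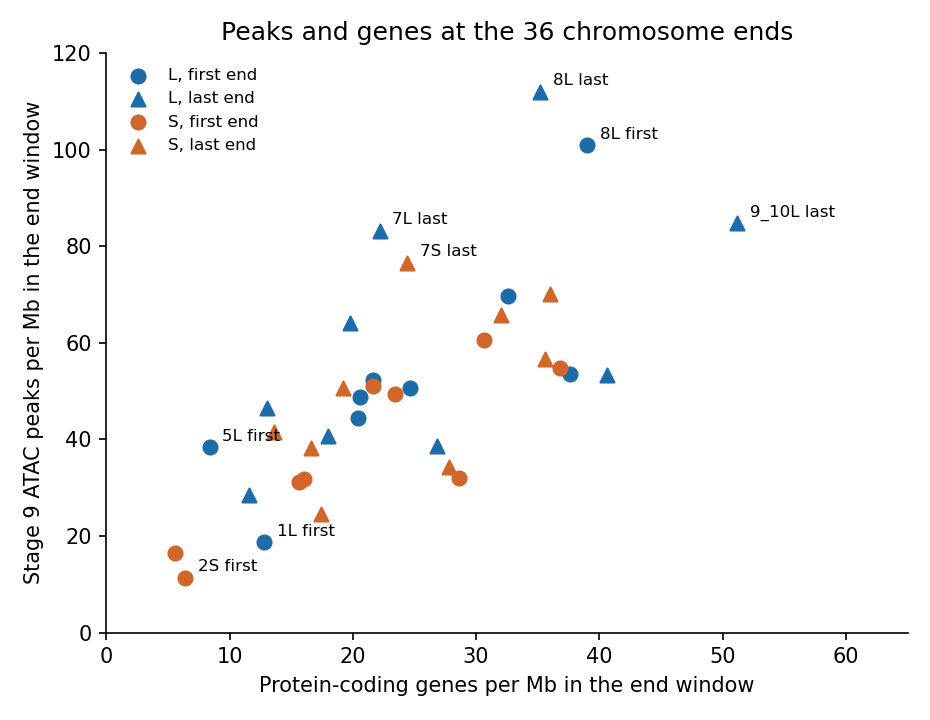
Peaks per Mb (y axis) against protein-coding genes per Mb (x axis) for the 36 end windows, L in blue and S in orange, circles for first ends and triangles for last ends. Both ends of 8L and the last end of 7L lie above the others with like gene density, and the first ends of 2S and 1L lie low on both axes.

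The windows differed in where the peaks stood. At the ends 18.5 peaks per Mb had their summit no more than 1 kb from where a protein-coding or lncRNA gene starts or stops and 32.2 per Mb were distal, against 7.94 and 11.2 per Mb outside the ends. The share within 1 kb was 36.4% at the ends (95% Wilson interval 35.4 to 37.4%, counting error only) and 41.4% outside (41.0 to 41.9%). By chromosome pair the share was lower by 5.34 ± 4.57 percentage points and was lower in 8 of 9 pairs (adjusted p = 0.0439, exact permutation test). Pair 9_10 went the other way, at 49.2% against 43.2%. The call was lost when any single one of pairs 1 to 8 was left out (adjusted p of 0.0703 to 0.0879, exact permutation test) and was kept without pair 9_10. Against the adjoining 10 Mb, with 36.3%, the difference was -0.320 points (adjusted p = 0.820, exact permutation test), and it also missed the threshold when 2 kb counted as at a gene (48.5% and 50.0%, adjusted p = 0.461). Genes themselves were shorter at the ends, with a median of 10.8 kb against 18.5 kb, and a gene known only by a LOC symbol was the nearest one for 36.4% of end peaks and 22.7% of the others.

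Most end genes had an accessible region close by, near the rate of all genes at the gene ends and above it for distal peaks. Of the 4316 genes, 2162 (50.1%) had a peak within 1 kb of a gene end, beside 47.8% of all 34461 protein-coding genes on the chromosomes. A distal peak within 10 kb was found for 2363 end genes (54.7%), beside 35.9% of all genes. At least 10 peaks within 10 kb stood near 249 end genes (5.77%) and near 0.969% of genes outside the ends. No peak lay within 10 kb of 1262 of the 4316 end genes. The median count within 10 kb was 2.00 peaks for end genes and 1.00 for genes outside the ends. Neighbouring genes can share a peak. Here and below, a peak within 10 kb of a gene is one within 10 kb of either of its ends. Peaks deep inside long genes are therefore not counted.

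Median coverage over all peaks was the same at the ends as elsewhere, with differences in the upper range. The median summit was covered by 9 fragments in both, and the medians by chromosome pair averaged 9.11 and 9.22. These medians were whole numbers, lower at the ends by 1.00 in pairs 1 and 3, higher by 1.00 in pair 5 and equal in the others. With so many ties the exact permutation test (p = 1.00) could not have passed, and nothing is drawn from it. The 90th percentile was 21 fragments at the ends and 18 outside. A −log10 q of at least 10 was reached by 24.1% of end peaks and 19.7% of the others. Among peaks past that limit the median was higher at the ends, 19.2 against 18.3 fragments by pair, in 7 of 9 pairs (adjusted p = 0.0234, exact permutation test). Among peaks of at least the median fold it was 12.2 at the ends and 12.8 outside, higher at the ends in 1 of 9 pairs (adjusted p = 0.161, exact permutation test). Widths of 500 bp or more were found for 6.80% and 5.13% of peaks. Fold enrichment peaked at 37.8 at the ends, whereas the strongest peak of the list had 83.6.

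The strongest end peak, 37.8-fold with 97 fragments at its summit, lay at chromosome 6L 1869053 to 1869376 (v10.1), within the gene LOC108704623 and 1379 bp from its nearer end. It ranked 8th in the whole list. The next stood 50.9 kb from the start of 5L, near LOC121393587 (32.8-fold, 60 fragments). A 100-bp peak at 1S 3041800 to 3041899 lay 495 bp inside the end of cct7.S, a subunit of the chaperonin that folds actin and tubulin (32.6-fold, 55 fragments). A peak 66 bp from fdps.L on 8L, which encodes farnesyl diphosphate synthase of the sterol pathway, had 52 fragments. The same height was found 93 bp from sox15.L on 3L, an HMG-box transcription factor of the Sox family, where the accessible region was 1055 bp wide, and 1428 bp from smpd1.L on 2L, acid sphingomyelinase. MGC130936 on 5L, tnk2l.L on 3L and LOC108704296 on 9_10S followed, with folds of 30.3 to 32.6, and the 10th place was shared at 30.1-fold by peaks nearest c8orf82.S, znf395.S, XB22063322.L and foxh1.2.L.

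Genes with the most peaks within 10 kb stood at a few ends. The highest count, 27 peaks, surrounded g67.L, 133 kb from the start of 5L. On the last end of 8L, efna1.L had 24 peaks, and its homeolog efna1.S on the last end of 8S had 21. This gene encodes an ephrin-A ligand, a membrane-anchored protein that signals to Eph receptors on neighbouring cells. Some neighbours below the 10 highest counts were chosen after their values were seen. Another ephrin gene on the same end, efna4.L, had 19 peaks, and shc1.L further inward, an adaptor of receptor tyrosine kinases, had 19 as well. Near the last end of 6L, fam83h.L, whose product organises keratin filaments, had 23 peaks, and foxh1.2.L next to it, a forkhead factor gene, had 19. The strongest of these, 30.1-fold at 163337733 to 163338407, lay 53 bp from foxh1.2.L and was counted for both. The remaining genes of the 10 with most peaks included add3.L on 7L (21 peaks), an adducin of the membrane skeleton. LOC121395742 (20 peaks) lies inside the span of add3.L, and the same peak was the strongest for both. The others were 4 genes with LOC symbols on 7S, 9_10L and 6L (20 to 22 peaks each). At 20 peaks syn1.L on 8L, a synapsin gene, tied with the last of these.

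The first ends of L chromosomes were denser than those of S in 7 of 9 pairs, and the test did not pass. They held 53.0 ± 22.5 and 37.6 ± 17.3 peaks per Mb (SD, n = 9), a difference of 15.4 ± 24.8 (exact permutation p = 0.0938, adjusted 0.141). At last ends the densities were 61.2 ± 27.1 and 50.9 ± 17.7, with L above S in 6 of 9 pairs (p = 0.141, adjusted 0.167, exact permutation test). Over both ends there were 2.32 peaks per gene on L chromosomes and 1.99 on S chromosomes, with L above S in 7 of 9 pairs (p = 0.148, adjusted 0.167, exact permutation test). With only named genes as the denominator the values were 5.34 and 3.92 peaks per gene and the call passed (adjusted p = 0.0352, exact permutation test). Last ends held more than first ends in 8 of 9 pairs, at 56.1 and 45.3 peaks per Mb, pair 6 being the exception, which fell short of the threshold after adjustment (exact permutation p = 0.0391, adjusted 0.0703). Without pair 6 the adjusted p was 0.0176.

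The 2 members of a pair did not always end in the same sequence, which bears on every comparison of L with S. Homeologs were matched by name, as 7759 genes with a single .L and a single .S copy in the same chromosome pair. At last ends, 255 of the 259 L genes with an S copy had it in the S last end. At first ends, only 189 of 351 did, and 162 S copies lay outside the end windows. From the S side fewer genes were matched. Of 346 S last-end genes with an L copy, 255 had it at the same end and 91 outside the end windows. Of 454 S first-end genes, 189 had it at the same end and 265 outside. In pairs 2, 4 and 5 the first ends of L and S had no homeolog in common. The S copies of the L genes lay around 28.9, 20.8 and 25.8 Mb (medians) on 2S, 4S and 5S. In pair 8 the first ends shared 9 genes, and 70 of the 79 L genes had their S copy outside the end windows, with a median position over all 79 of 27.6 Mb. The first ends of pairs 1 and 6 shared 2 and 4 genes. In the 3 pairs where most matched first-end genes stood in the same end on both chromosomes, a criterion set after the data were seen, first ends held 52.1 peaks per Mb on L and 51.7 on S. The difference was 0.400 ± 1.39 (SD, n = 3) and those 3 pairs, 3, 7 and 9_10, gave 50.6 against 49.4, 52.2 against 51.0 and 53.6 against 54.8. At the other first ends the differences reached 69.2 in pair 8 (101 against 31.8), 37.4 in pair 2 and 22.0 in pair 5. L was also denser in pair 4 (44.4 against 32.0) and pair 6 (69.6 against 60.6). Pair 1 went the other way, with 18.8 on L and 31.2 on S. At last ends, L exceeded S by 41.4 peaks per Mb in pair 8, 28.2 in pair 9_10 and 22.4 in pair 6. In these pairs 62 of 81, 32 of 36 and 16 of 20 S genes had their L copy at the same end. S exceeded L in pairs 2, 3 and 5, where 12 of 32, 31 of 51 and 24 of 36 S genes did. The part of shared sequence in these differences was not tested.

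**Figure D4:**
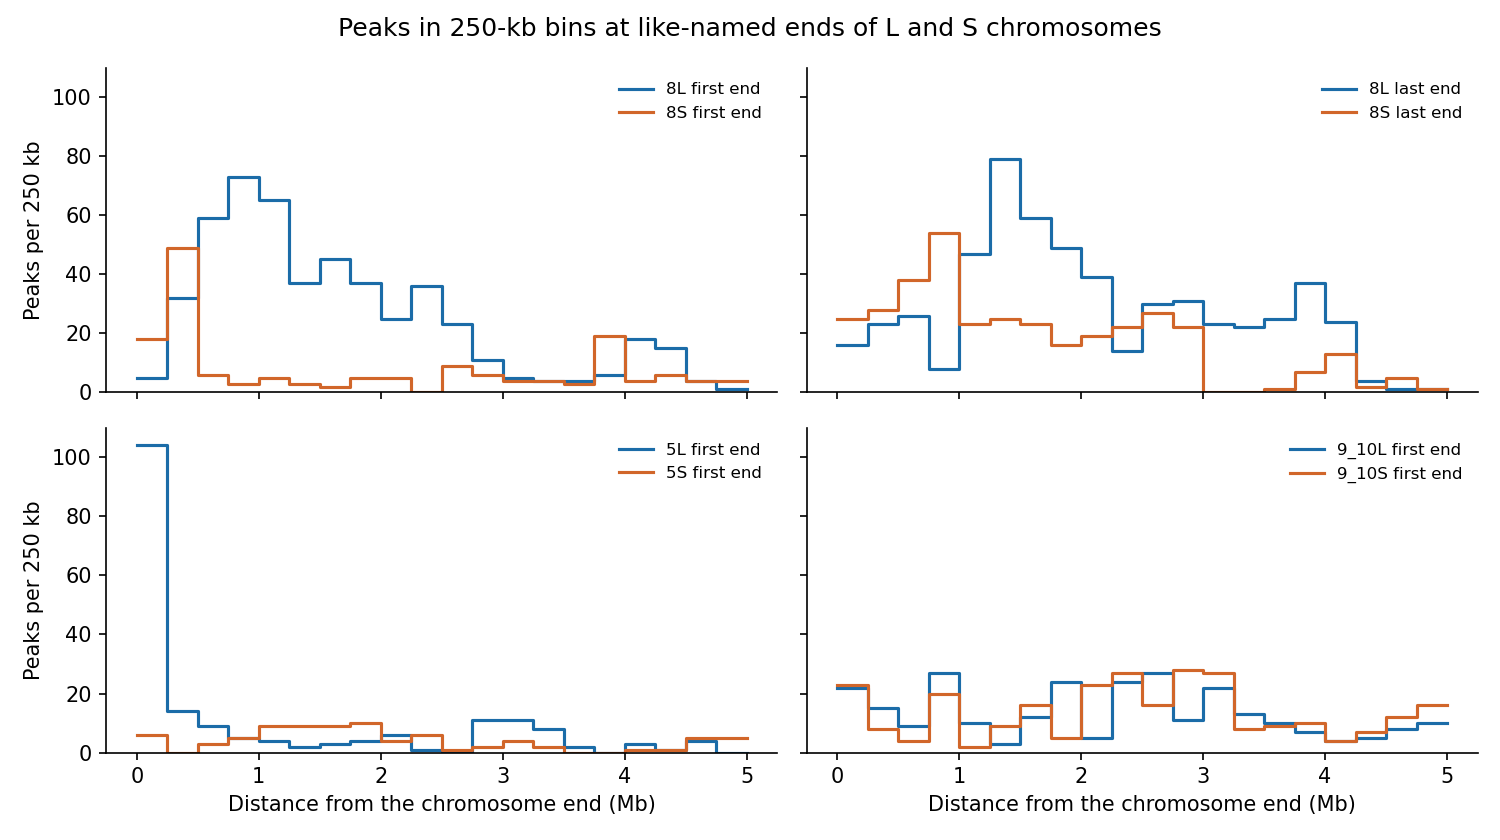
Peaks per 250 kb (y axis) by distance from the chromosome end in Mb (x axis) at the first and last ends of pair 8 and the first ends of pairs 5 and 9_10, L in blue and S in orange. The outermost 250 kb of 5L held 104 peaks, the highest bin of all, 8L peaked at 79 near its last end and 73 near its first, and the first ends of 9_10L and 9_10S stayed at or under 28.

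Since many genes stand at an end on 1 subgenome and in the interior on the other, their copies could be compared directly. Of the gene pairs, 522 had 1 copy in an end window and the other outside, 166 with the L copy at the end and 356 with the S copy. End copies had 3.08 peaks within 10 kb on average and the other copies 3.18. The sign differed with the subgenome of the end copy. L end copies had 4.43 peaks on average against 4.12 for their S copies, and S end copies had 2.45 against 2.74 for their L copies. All 166 L end copies came from pairs 2, 4, 5 and 8, 70 of them from the first end of 8L. S end copies came from all 9 pairs, these included. The 2 directions were not compared within a pair, so the parts of subgenome and chromosome in this sign were not tested. The pooled value rests on a set in which S end copies outnumber L end copies. The end copy had more peaks in 186 pairs, the other copy in 205, and 131 were equal. A peak within 1 kb was found for 66.9% of end copies and 67.4% of the others. By chromosome pair the mean difference was -0.391 ± 0.926 peaks (SD, n = 9, end copy higher in 3 of 9, exact permutation p = 0.250, unadjusted and outside the 9 comparisons), with a span from -1.50 in pair 9_10 to 1.26 in pair 7. That the test was not passed does not show that the copies were alike. Limiting the set to the 354 pairs whose other copy lay over 10 Mb from either end gave 3.23 and 3.29 peaks, and a difference of -0.377 ± 0.692 over 5 chromosome pairs. This comparison was added after the data were seen.

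**Figure D5:**
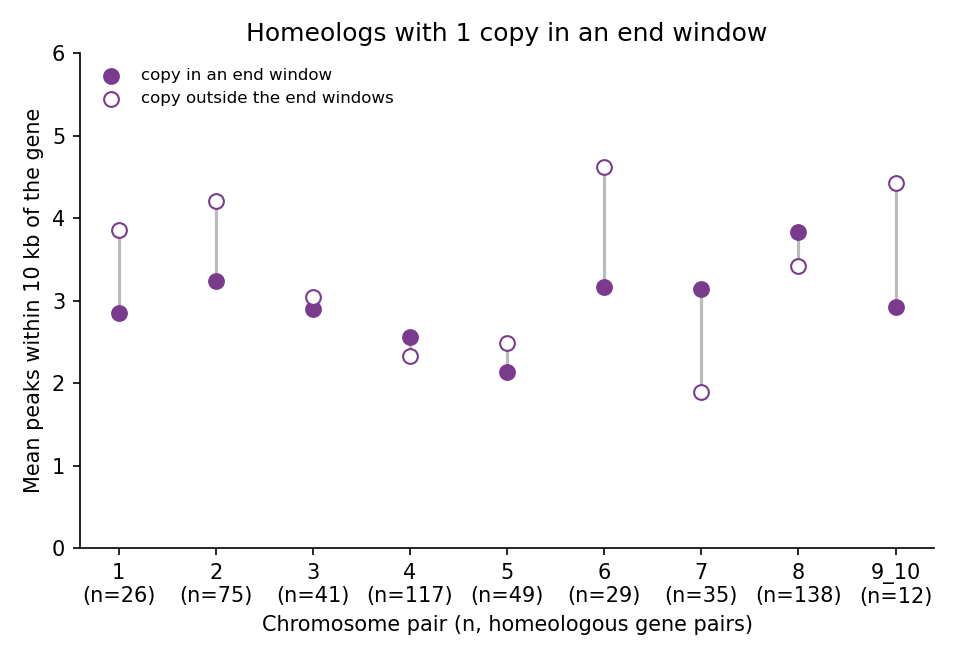
Mean number of peaks within 10 kb of either end of a gene (y axis, from 0), by chromosome pair (x axis, with the number of gene pairs). The homeologs shown have 1 copy in an end window (filled) and the other outside (open). The end copy is higher in pairs 4, 7 and 8 and lower in the other 6, and the means over all 522 gene pairs were 3.08 and 3.18.

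Among those 354 pairs, genes of the first end of 8L gave the 8 widest differences in favour of the end copy, and the examples here were chosen after their values were seen. The copy of suv39h1, a histone H3 lysine methyltransferase of heterochromatin, had 13 peaks on 8L and 2 on 8S. A beta-tubulin gene, tubb4b, had 13 and 3, mbd1, which binds methylated CpG, had 11 and 2, and the Raf kinase gene araf had 10 and 2. In the other direction, u2af1, a splicing factor that recognises the 3′ splice site, had 2 peaks at the first end of 2L and 11 at 29.2 Mb of 2S, and trappc10, a subunit of a vesicle tethering complex, had 3 and 11. Within pair 8 the mean over the 119 gene pairs of this kind was 4.15 for the end copy and 3.68 for the other, whereas in pair 2 it was 3.58 and 4.53 over 60.

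Gene pairs with both copies at the same end allow L and S to be compared in matching segments. There were 444 such pairs, with 4.27 peaks within 10 kb on L and 3.61 on S, beside 2.13 and 1.89 for the 6793 pairs with both copies outside the ends. The L copy had more peaks in 196 pairs, the S copy in 137, and 111 were equal, and in the interior the L copy had more in 2534 pairs and the S copy in 1927. Both copies had a peak within 1 kb in 56.5% of the pairs (95% Wilson interval 51.9 to 61.1%) and neither in 27.3%, beside 52.4% and 27.7% of the interior pairs. A peak at L alone was found in 9.46% (7.07 to 12.5%) and at S alone in 6.76% (4.77 to 9.48%), and the corresponding interior shares were 11.2% and 8.64%. Counts of the 2 copies had a Spearman rho of 0.618 across the 444 pairs and 0.558 across the interior pairs, a description across genes that share libraries and neighbouring peaks. At the last end of pair 8, where all 62 matched L genes had their S copy at the same end, the L copies summed to 401 peaks and the S copies to 266, with L higher for 38 genes and S for 13. On the first ends of 9_10, 109 pairs summed to 255 and 267 peaks, with L higher for 32 and S for 34. At the last end of pair 5, 24 pairs summed to 95 on L and 126 on S, with L higher for 6 and S for 14. S sums were also higher at the first ends of pairs 3 and 6 and the last end of pair 4. At the remaining ends with shared genes the L sums were higher. Neighbouring genes can share a peak, so the pooled L and S means are a description only.

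Among pairs with both copies at the same end, the largest L excesses were at the last ends of pairs 8, 6 and 7 and the first end of pair 7. celf3, which encodes an RNA-binding regulator of splicing, had 17 peaks on 8L and 2 on 8S. For fam83h the counts were 23 and 8, for add3 21 and 9, for bop1, a ribosome biogenesis factor, 15 and 5, for plekhm2, an adaptor in lysosome movement, 14 and 4, and for itprip 14 and 5. The largest S excess was that of zbtb17, a zinc finger transcription factor that partners Myc, with 4 peaks on 7L and 19 on 7S. On the same ends szrd1 had 5 and 14. The ABC-family ATPase gene abcf2 had 4 and 11, f11r, a tight junction adhesion molecule, 2 and 9, hoxb7 4 and 11, and rap1gap, which switches off the small GTPase Rap1, 3 and 10. Opposite excesses thus stood within 1 end, the last end of pair 7, at plekhm2 on the one hand and zbtb17, szrd1 and rap1gap on the other.

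Genes of most developmental lists were found at the ends in shares below the 12.5% of all protein-coding genes that lie there, and no list was tested for this. The ectoderm, germ plasm and hox lists lay above it. That 12.5% includes genes with LOC symbols, which no list member at an end has. Named genes alone stood at 12.1 per Mb at the ends and 7.99 outside, so the 12.5% is not a like comparison for the lists. Of 48 pluripotency regulators 4 (8.33%) stood at an end, the 3 pou5f3 genes of 8L and dppa2.L. The pou5f3 genes encode POU factors of the Oct4 family. The study gives maternal Pou5f3 a role in activating the embryonic genome. It found maternal transcripts of pou5f3.3 and pou5f3.2, while pou5f3.1 was not maternal. Their cluster started 2.29 Mb from the start of 8L, in the end window, and at 27.6 Mb of 8S, outside it. Within 10 kb, pou5f3.1 had 14 peaks on L and 5 on S, pou5f3.2 had 10 and 13, and pou5f3.3 had 9 and 13. These windows overlap, so 1 peak can count for several of the genes. On 8L, pou5f3.2.L reaches to 2299844 and pou5f3.1.L starts at 2304047. The copies on 8S stand further apart, at 27587612 and 27602654. The part of this spacing in the counts was not tested. The cluster with 10 kb on either side held 14 peaks on 8L and 18 on 8S, and the strongest on each was 14.1-fold with 22 fragments. On 8L this peak stood 381 bp from pou5f3.1.L at 2308685 to 2309007, and on 8S 2165 bp from pou5f3.2.S at 27589679 to 27590073. No 8L peak had its summit within 1 kb of pou5f3.3.L, whereas 4 did at pou5f3.3.S. These 4 peaks were weak, with folds of at most 4.18 and 5 to 9 fragments. The median fold over all peaks on the chromosomes was 5.51. Whether the 2 copies differ in accessibility there was not tested.

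Of the other developmental genes with 1 copy at an end, those with 8 or more peaks there are given with both counts. Among those with under 8 peaks only hes7.1 and wee1 are given so, chosen after their values were seen. cdc25b, a phosphatase that drives entry into mitosis, had 17 peaks at the first end of 1S and 22 at 11.1 Mb of 1L. not, a homeobox gene of the organizer and notochord, had 11 at the same end and 12 on 1L at 10.0 Mb. The myogenic factor gene myod1 had 8 peaks near the start of 4L and 13 at 23.3 Mb of 4S, with a 22.0-fold peak of 56 fragments on 4L. hes7.1, a bHLH repressor gene, had 7 at the last end of 3S and 10 on 3L. wee1, a kinase that holds back mitosis, had 7 on both 4L and 4S. Among other list members with 8 or more peaks, has1.S, a hyaluronan synthase gene on 3S, had 15, gs17.L, a gene of the first zygotic transcripts on 9_10L, had 10, and ambp.L, a liver secretory protein gene on 8L, had 10.

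The first ends of 9_10 carry the hoxb cluster, homeobox genes that set position along the body axis, and a keratin cluster. Of 56 hox genes on the list 12 (21.4%) were at an end, all hoxb, and 5 of these had a peak within 1 kb and 10 a distal peak within 10 kb. In the interior 34 of 44 hox genes had a peak within 1 kb and 39 a distal peak within 10 kb. Over all end genes the shares were 50.1% within 1 kb and 54.7% for a distal peak. Counts at hoxb were higher on S for most pairs: hoxb5 had 2 on L and 6 on S, hoxb6 4 and 7, hoxb7 4 and 11, and hoxb9 0 and 4, while hoxb1 had 1 on each. hoxb2.S had 8. The strongest peak within 10 kb of hoxb7.L was 5.66-fold with 9 fragments, and that of hoxb7.S was 11.0-fold with 18. Hoxb and keratin genes with 1 to 7 peaks are named to show all list members of these clusters. The keratin genes krt12.4, krt19 and krt70, structural proteins of epithelial filaments, had 0 to 4 peaks each. The epidermal regulator dlx3 had none on L and 2 on S, and krt19.S had none.

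The other lists are given by their counts. Of 141 ribosomal protein genes 12 were at an end and 11 of them had a peak within 1 kb, beside 98 of 129 in the interior. Of the late organ proteins, genes of differentiated organs, 4 of 65 were at an end. All 4 are named whatever their count. actc1.S, a cardiac actin gene, and prss1.L, a trypsinogen gene, had no peak within 10 kb, while cela2a.L had 1 and ambp.L had 10. For lists with a single member at an end that member is named whatever its count. The ends held 1 of 52 genes of BMP signalling, bmp2.L with 1 peak (20.9-fold, 33 fragments), 1 of 57 neural regulators, otx1.S with 5 peaks, 5 of 60 mesoderm and endoderm genes, 3 of 36 organizer genes and 0 of 10 histone genes. The ends also held 4 of 42 first zygotic genes, 6 of 63 maternal cell cycle genes, 9 of 57 ectoderm genes, 4 of 54 chromatin regulators and 3 of 19 germ plasm genes, or 9.52%, 9.52%, 15.8%, 7.41% and 15.8%. A distal peak within 10 kb, found for 54.7% of all end genes, was found for 4 of 4 first zygotic genes at an end (57.9% of those in the interior) and for 6 of 6 maternal cell cycle genes (49.1%). The count was 6 of 9 for ectoderm genes (72.9% in the interior), 3 of 4 for chromatin regulators (68.0%) and 1 of 3 for germ plasm genes (62.5%). For mesoderm and endoderm genes it was 5 of 5 (54.5%) and for organizer genes 3 of 3 (63.6%). Genes stand on more than 1 list, and the lists are described by these counts only.

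The last end of pair 1 holds the interval between dnajb5, a heat shock co-chaperone gene, and npr2, a natriuretic peptide receptor gene, which the study examined for a microRNA locus. It spanned 2067 kb with 91 peaks on 1L (44.0 per Mb) and 1823 kb with 35 peaks on 1S (19.2 per Mb). Protein-coding genes numbered 46 in each. The whole last ends, in which these intervals lie, held 40.6 peaks per Mb on 1L and 24.6 on 1S. Of the flanking genes, dnajb5 had 2 peaks within 10 kb on L and 3 on S, and npr2 had 3 on both. Within 1 kb, dnajb5 had 2 on L and 1 on S, and npr2 had 2 and 0. The microRNA itself has no entry in the gene table used here and no value is given for it.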

How the data were processed

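ATAC-seq was made from stage 8 and stage 9 animal caps, and 1 peak list of the pooled stage 9 libraries was used. According to the methods of the study and the notes on processing, the authors' read pairs were mapped with Bowtie2 2.4.2 to X. laevis v10.1, alignments of high mapping quality and short fragments were kept, and peaks were called with MACS2 2.2.7.1 against pooled no-antibody CUT&RUN libraries (bedtools 2.30.0 is also named). The authors also discarded peaks that overlapped genes of small RNAs or ribosomal DNA. The mapping filter loses repeats and places where L and S are nearly identical. Since the control was another assay, cutting preferences of Tn5 are not removed by it.

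For each peak the authors deposited a fold enrichment over background (a ratio), a −log10 p-value and a −log10 q-value, a score and the summit offset. Fold (with MACS2's pseudocount of 1) and p-value were inverted to the fragments and background at the summit, within a relative tolerance of 0.0001. Of 2 possible solutions, met at 410 peaks, that of larger background was taken. The depth of single libraries was not analysed here, and coverage at the summit was the only measure of depth. Intervals (95%) cover counting error only, as PCR copies were not separated by molecular identifiers.

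Gene positions were those of NCBI RefSeq for the v10.1 assembly, without strand, transcripts or exons, so both gene ends served in place of transcription starts, and whether a peak is exonic, intronic or in a UTR was not determined. No sequences are printed. A gene was assigned to a window by its midpoint. Peaks within 10 kb of a gene were those within 10 kb of either of its ends. Pairs of chromosomes were compared with exact two-sided sign-flip permutation tests, adjusted by Benjamini and Hochberg over 9 comparisons (Python 3.11.15, numpy 2.4.6, pandas 2.3.3, scipy 1.17.1), after a check on simulated data.

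Named genes were those nearest the 10 end peaks of highest fold, the 10 with most peaks within 10 kb, the 6 homeolog pairs of largest excess in each direction, the densest and sparsest ends, list genes with 8 or more peaks or with 0, and the flanks of the microRNA locus and the pou5f3 genes. Ties were broken by summit position or gene symbol. Genes outside this rule are marked in the text. The members, lists and tests were chosen with earlier results of these data known. Alternatives were other windows, stricter peak limits, other chromosome bounds, joined summits, distal peaks, named genes and each pair left out in turn.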

Additional observations from a re-analysis of the deposited data

Results flagged for a closer look

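The first end of 5L had 4.57 peaks per protein-coding gene, far from the other 8 L first ends, of which the next highest had 2.59. The gap was 0.631 of the range of the 9 values, above Dixon's 95% critical value for 9 values. Such a check passes by chance for about 1 in 20 groups, and 8 groups of 9 ends were checked, for density and for peaks per gene. This end held 192 peaks and 42 genes, and 132 of the peaks lay in its outermost Mb, 104 of them in the outermost 250 kb beside 9 genes, where g67.L is. Its median summit had 12 fragments and a background of 1.06, and only 21.9% of its summits had the lowest background, beside 54.7% over all ends. The part of local control signal or repeats in this value was not tested.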

How the results depend on the processing

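No paired analysis was possible because the replicates were pooled into 1 peak list. Besides the 9 planned comparisons, that of gene copies was added after the data were seen, and 168 alternative values were computed for these 10 results. Of these, 146 kept direction and side of the threshold, among them all for peaks per Mb and genes per Mb at the ends, for L against S at first and at last ends, and for gene copies. With windows of 10 Mb, peaks per gene no longer passed (0.325). Against the adjoining 10 Mb alone, peaks per gene (0.365) and the share within 1 kb (-0.320 points) did not pass, and the median fragments differed by 0.222. The share also missed with joined summits (-3.22) and with 2 kb (-1.50). The median fragments changed sign with a −log10 q of at least 10 or with at least 10 fragments (0.889 in both) and with distal peaks alone (0.111). First against last ends passed with −log10 q of at least 10 (-4.94), at least the median fold (-9.21) and distal peaks (-8.26). L against S in peaks per gene passed with named genes (1.43). With each pair left out in turn, the share ranged from -6.75 to -4.68 points and missed the threshold in 8 of 9 fits (adjusted p up to 0.0879), passing without pair 9_10. First against last ends ranged from -13.6 to -8.56 and passed only without pair 6. The cause of the other changes was not tested. Coverage of 9 fragments at the median summit limits weak peaks, and regions that short reads do not map uniquely are missed.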

Other observations

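At first ends, where the window starts at base 1 of the assembly, the outermost peak stood at 2.93 kb on 6S, 3.74 kb on 2S and 5.29 kb on both 5L and 9_10L. On 4S none lay before 295 kb. The strongest of the outermost peaks at first ends was that of 3S, 76.5 kb from the end and 15 bp from eps8.S, an actin regulator downstream of the epidermal growth factor receptor, with 34 fragments and a fold of 19.6. On 8L the outermost peak lay 1873 bp from rpl10.L, a large ribosomal subunit gene that also stands near the start of 8S. Each end also had wide stretches without a peak. The largest gap between neighbouring summits was 952 kb at the last end of 1S and 937 kb at the first end of 1L, and 186 kb at the first end of 8L.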
